A study of Mus musculus with 9 samples.

Results

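The osteoclast programme genes described here are 10 mouse genes chosen by symbol for their known roles in bone-resorbing cells, out of 22524 genes counted in each library. Tnfrsf11a (RANK) and Oscar are receptors, Nfatc1 is a transcription factor, and Dcstamp, Ocstamp and Atp6v0d2 act in cell fusion. Itgb3 acts in attachment to bone, Ctsk and Acp5 act in resorption, and Calcr is the calcitonin receptor. All 10 were found in the count files, and 9 had enough reads for testing.

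Osteoclasts are multinucleated cells that form by fusion of macrophage precursors under M-CSF and RANK ligand, and they dissolve bone mineral with acid and bone matrix with proteases. RANK ligand binds RANK, whose adaptor TRAF6 activates NF-kB and MAP kinases, while immunoreceptors that use the ITAM adaptors Tyrobp and Fcer1g raise calcium. Both inputs meet at NFATc1, which amplifies its own gene and turns on fusion and resorption genes. Macrophages grown from bone marrow are the usual precursors in culture, and they express RANK before they meet its ligand.

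The libraries came from bone marrow cells of C57BL/6 mice cultured for 7 days in plastic dishes and labelled as primary macrophages. The 3 groups held 3 libraries each: SRF-KO cells given lipopolysaccharide (LPS) for 6 h (SRF-KO LPS below), wild-type cells given LPS for 6 h and titled Control (WT LPS), and wild-type cells with no treatment (untreated WT). LPS is a bacterial cell wall component sensed through Toll-like receptor 4, and SRF (serum response factor) switches on cytoskeletal and immediate-early genes. The stated question was what LPS does to expression and what role SRF has. The sources used here do not give the way Srf was deleted, the age of the mice, the growth factor or the LPS dose, and the labels name no added RANK ligand. SRF-KO cells without LPS were not analysed here, and their response to LPS was therefore not measured. The labels do not say whether the 3 libraries of a group stand for separate mice or dishes. The spread behind every p-value may thus be technical.

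Total counts were 16987011 to 24912173 in SRF-KO LPS cells, 15321839 to 19009123 in WT LPS cells and 15867737 to 17606538 in untreated WT cells. Srf itself had 34, 24 and 12 counts in the SRF-KO libraries, against 738, 799 and 900 in WT LPS cells and 810, 975 and 884 in untreated WT cells. The Y-linked genes Uty, Ddx3y, Kdm5d and Eif2s3y had 0, 1, 1 and 4 counts over the SRF-KO libraries, against 942, 2082, 806 and 2161 over the wild-type LPS libraries. Over the untreated libraries they had 1176, 2608, 1206 and 2347 counts, so genotype and Y-linked expression cannot be told apart in any comparison with SRF-KO. All 8 of 8 macrophage markers were expressed above 1 CPM, with summed levels of 18900 to 19090 CPM in SRF-KO LPS cells, 19810 to 20300 CPM in WT LPS cells and 16600 to 17120 CPM in untreated WT cells. Neutrophil markers summed to 18.75 to 19.96 CPM, 6.27 to 7.26 CPM and 1.87 to 2.32 CPM in the same order of groups, and Elane was at 0 in all 9 libraries. Osteoblast and stromal markers summed to 12.2 to 13.5 CPM, 3.23 to 5.08 CPM and 6.51 to 6.80 CPM, 9 of these 10 markers were at most 1 CPM, and Col1a1, Col3a1, Ibsp and Cxcl12 were at 0. B cell markers summed to 0.116 to 0.340 CPM in SRF-KO LPS cells, 0.905 to 1.45 CPM in WT LPS cells and 1.58 to 2.17 CPM in untreated WT cells. T and NK cell markers summed to 0 to 0.0387 CPM, 2.01 to 2.42 CPM and 2.94 to 5.08 CPM in the same order, with Cd3d and Ncr1 at 0 in all libraries. Both sums were thus lowest in SRF-KO, where the neutrophil sum was highest. Of these markers, 4 of 5 for B cells, 4 of 5 for T and NK cells and 4 of 7 for neutrophils were at most 1 CPM. These sums can thus rest on few genes of each list. Dendritic cell markers were at most 1.13 CPM in sum and erythroid markers at most 0.0567 CPM. The part of these differences in the results below was not tested. In bulk RNA, fewer cells of a type and less RNA per cell cannot be told apart.

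Under LPS, SRF-KO macrophages had more RNA of Ctsk, Acp5 and the fusion genes than wild-type macrophages, and less RNA of the receptor RANK. Ctsk was 22.1-fold and Dcstamp 14.1-fold higher in SRF-KO, Nfatc1 was 3.23-fold higher, and Tnfrsf11a was 6.30-fold lower. In wild-type cells, LPS was followed by lower levels of Nfatc1, Dcstamp, Atp6v0d2, Itgb3 and Ctsk than in untreated cells. Acp5 and Ocstamp were higher with LPS. The call of Ocstamp depended on the scaling, as did a small rise of Tnfrsf11a. SRF-KO cells with LPS stood above untreated wild-type cells for Ctsk, Acp5, Dcstamp and Ocstamp and below them for Tnfrsf11a, Itgb3 and Atp6v0d2.

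**Figure D1:**
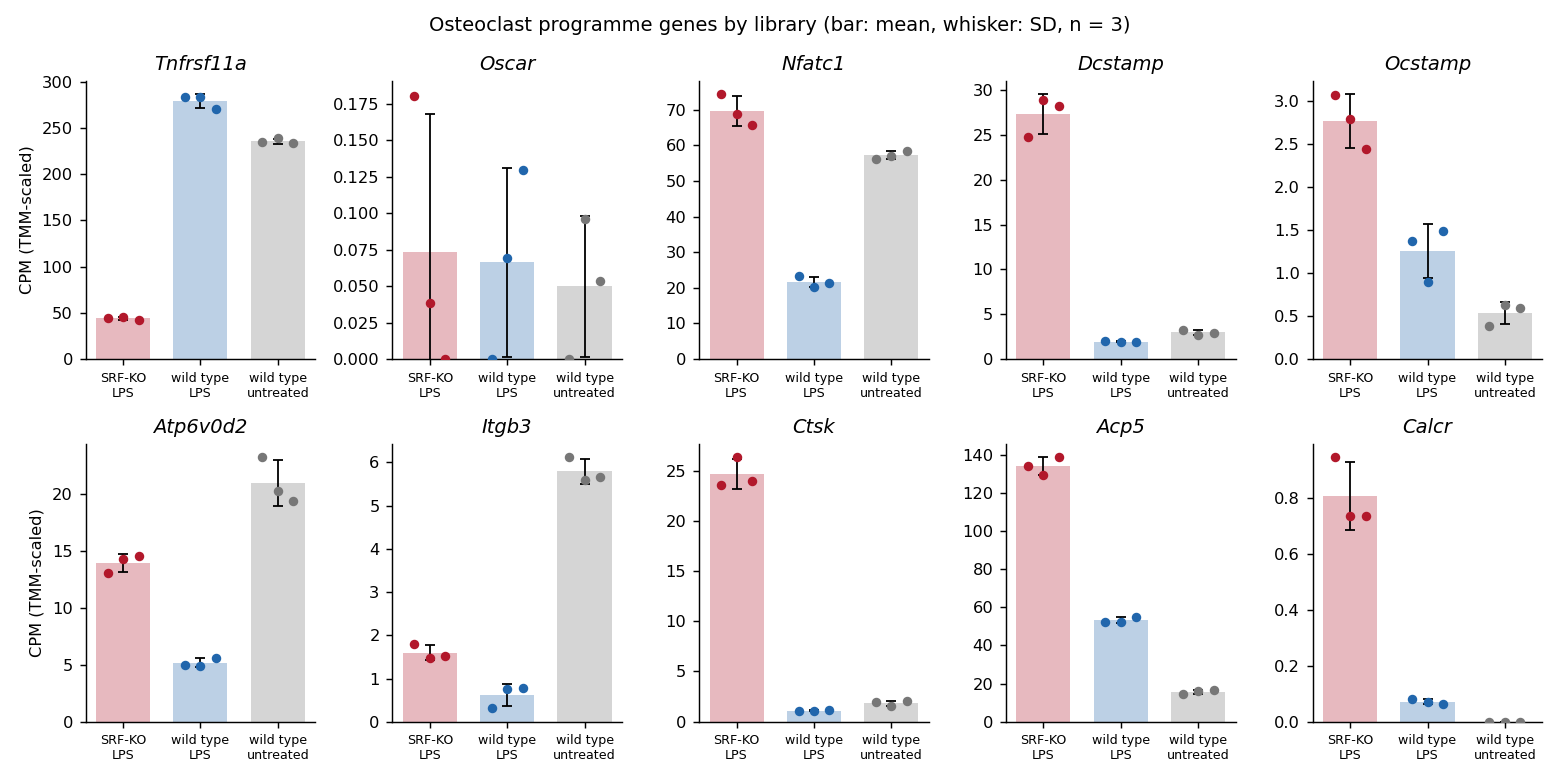
Levels of the 10 osteoclast programme genes in CPM (scaled by TMM) in each of the 9 libraries. Points are libraries, bars are means and whiskers are SD of 3 libraries, and each panel has its own axis from 0. Ctsk and Dcstamp are high in SRF-KO LPS cells alone, Tnfrsf11a is low there, and Itgb3 and Atp6v0d2 are highest in untreated WT cells.

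Levels are given as CPM, that is reads of a gene for each 1000000 reads of the library after TMM scaling, and changes as log2 fold changes with standard errors (SE) from edgeR's quasi-likelihood test. A gene was called at a Benjamini-Hochberg adjusted p below 0.05 over the 11560 genes tested. Of the 9 tested members, 8 were called higher, all of them at least 2-fold, and 1 lower in SRF-KO LPS over WT LPS. Of all tested genes 39.1% were called higher, 13.9% higher by at least 2-fold, and 37.9% lower in that comparison. Calcr had to differ in it, since it passed the filter on low counts only through the SRF-KO libraries, and without Calcr 7 members were called higher and 1 lower. The members were chosen with earlier results of these data known, so their share of calls is not an independent test.

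For LPS against untreated in wild type, 4 members were called higher and 5 lower, beside 40.8% of all genes higher and 40.8% lower. One of these 4, Calcr, had 3 counts in all with LPS and 0 without, and its call (edgeR adjusted p = 0.0394) was lost in 9 of 14 alternatives. For SRF-KO LPS over untreated WT, 6 were called higher and 3 lower, beside 39.4% and 40.1%. Calcr had to differ here too, for the same reason, and without it 5 were called higher and 3 lower. The 9 tested members had library values that did not overlap between the groups in each of the 3 comparisons, as did 78.0%, 82.1% and 79.5% of all genes. Among the 9, Calcr had to separate in the comparisons with SRF-KO, and for LPS in WT cells it separated on 3 counts against 0. The all-gene shares are large, so a call or a lack of overlap alone does not set a member apart from other genes. The sizes of the changes are therefore given for each. The median log2 fold change of the tested members was 1.42 for SRF-KO LPS over WT LPS, -0.61 for LPS in WT cells and 2.38 for SRF-KO LPS over untreated WT. Without Calcr the median was 1.38 for SRF-KO LPS over WT LPS and 1.33 for SRF-KO LPS over untreated WT. Over all genes tested the same medians were 0.01, -0.02 and -0.01.

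The 3 comparisons share libraries, so their values for one gene are not independent. TMM scaling assumes that most genes do not change, and most did pass the test. With library totals in its place, the median of all genes was 0.37 for SRF-KO LPS over WT LPS, -0.57 for LPS in WT cells and -0.20 for SRF-KO LPS over untreated WT. The members then split into 8 higher and 1 lower, 1 higher and 6 lower, and 5 higher and 3 lower in those comparisons. Of all 11560 genes tested, 7059 were then called higher and 2434 lower, 2428 and 7835, and 3448 and 6042, in the same order. The library-total splits of the lists below are to be read beside these all-gene numbers.

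**Figure D2:**
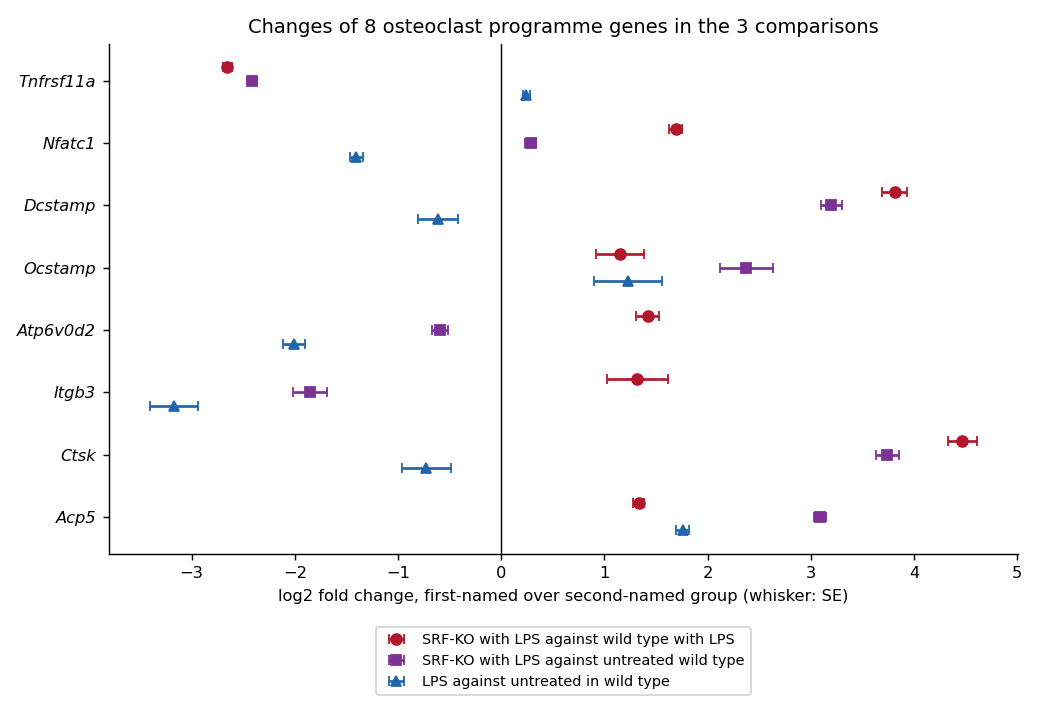
Log2 fold changes (points) with SE (whiskers) of 8 osteoclast programme genes in the 3 comparisons, the first-named group over the second. Oscar was too low to test and Calcr had 0 counts in untreated cells, so neither is drawn. For SRF-KO LPS over WT LPS, 7 genes lie to the right of 0 and Tnfrsf11a lies at -2.66. For LPS in WT cells the genes spread between -3.17 for Itgb3 and 1.76 for Acp5.

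Tnfrsf11a encodes RANK, the receptor through which RANK ligand starts the programme (GRCm38 chr1:105780718-105847981, plus strand). It had 44.3, 45.7 and 42.6 CPM in the SRF-KO libraries with LPS, against 283, 284 and 271 CPM in WT LPS cells and 235, 239 and 234 CPM in untreated WT cells. The SRF-KO libraries were all far below the other 6, and the ranges of the 3 groups did not overlap. Its log2 fold change was -2.66 (SE 0.0433, edgeR adjusted p = 4.23e-36) for SRF-KO LPS over WT LPS. Against untreated WT it was -2.41 in SRF-KO LPS cells (SE 0.0429, edgeR adjusted p = 3.71e-35). LPS in wild-type cells went with a small rise of 0.24 (SE 0.0377, edgeR adjusted p = 2.88e-07) with TMM scaling, which turned to -0.31 with library totals (edgeR adjusted p = 1.99e-09).

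RefSeq windows of 300 bases around gene starts (GRCm38.p6, 250 bases before and 50 after) were at hand for 5 of the 10 genes. The windows of Tnfrsf11a, Ctsk and Acp5 are shown because these genes carry the fall of the receptor and the rise of 2 resorption genes in SRF-KO. These windows were thus picked by outcome, and a link between matches and direction was not tested. Capitals mark matches, on either strand, to the NFAT core GGAAA and the MITF E-box CACATG. The 5 capitals TTTCC are the NFAT core read on the other strand. The searched motifs also included the AP-1 element TGANTCA and the CArG box, the known binding element of SRF.
Tnfrsf11a chr1:105780473-105780772 plus strand: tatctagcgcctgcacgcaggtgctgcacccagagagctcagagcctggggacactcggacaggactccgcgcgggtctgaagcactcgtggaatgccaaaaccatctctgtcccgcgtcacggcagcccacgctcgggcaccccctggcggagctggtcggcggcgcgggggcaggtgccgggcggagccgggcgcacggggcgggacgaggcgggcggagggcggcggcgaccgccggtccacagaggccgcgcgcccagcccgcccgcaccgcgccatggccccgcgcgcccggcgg
Ctsk chr3:95498960-95499259 plus strand: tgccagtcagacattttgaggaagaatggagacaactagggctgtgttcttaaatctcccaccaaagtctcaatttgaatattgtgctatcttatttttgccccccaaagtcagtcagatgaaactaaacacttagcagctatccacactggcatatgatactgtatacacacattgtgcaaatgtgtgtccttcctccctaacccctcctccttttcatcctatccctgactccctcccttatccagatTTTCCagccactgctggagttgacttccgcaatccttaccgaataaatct
Acp5 chr9:22130549-22130848 minus strand: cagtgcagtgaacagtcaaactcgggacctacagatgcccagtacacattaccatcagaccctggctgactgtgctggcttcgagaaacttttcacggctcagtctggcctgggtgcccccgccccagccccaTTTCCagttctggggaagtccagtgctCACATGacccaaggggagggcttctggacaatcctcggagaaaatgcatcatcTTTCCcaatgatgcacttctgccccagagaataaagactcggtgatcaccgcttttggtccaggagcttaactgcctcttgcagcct

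The Tnfrsf11a window held no match to any of the 4 motifs. The Ctsk window held 1 NFAT core, at base 1 from the RefSeq start site. That core lies before the GENCODE gene start at 95499256. No GENCODE transcript starts at the RefSeq sites of the Tnfrsf11a and Ctsk windows. Acp5 has 3 RefSeq start sites, and the window shown is the one whose start coincides with a GENCODE transcript start. It held 2 NFAT cores, 117 and 37 bases before the start, and 1 E-box, 90 bases before it. The Acp5 windows not shown held 1 NFAT core each. The window of Oscar, which was at the limit of detection in all groups, held 4 NFAT cores and 1 E-box. Calcr had a window with 1 NFAT core and a window with no match. Among all 32851 mouse windows of this length, 61.3% held the NFAT core, 14.2% the E-box, 7.81% the AP-1 element and 1.63% the CArG box. Neither the AP-1 element nor the CArG box was found in any window of the 5 genes. A match describes the letters of the window and is not evidence of binding.

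Genes around RANK moved in both directions. Of 13 tested genes of RANK ligand, receptor and proximal signalling, 5 were called higher and 6 lower in SRF-KO LPS over WT LPS, with a median of 0.00. Tnfrsf11b, one of the 5, passed the filter on low counts only through the SRF-KO libraries and had to differ, and without it 4 were called higher and 6 lower (median -0.21). For LPS in WT cells 10 were called higher and 3 lower, with a median of 0.39. With library totals these splits were 7 and 5, and 6 and 7. Tnfsf11, RANK ligand, had 0, 4 and 1 counts in the SRF-KO libraries and 0 counts in all 6 wild-type libraries. Tnfrsf11b, osteoprotegerin, is the soluble decoy receptor that blocks RANK ligand. It had 27, 21 and 20 counts in SRF-KO LPS cells, against 6 over the wild-type LPS libraries and 0 in untreated WT cells. Its count ratio between the LPS groups was 7.31 (95% counting interval 3.19 to 20.6). Traf6, the adaptor of RANK, averaged 63.4 ± 0.950 CPM in SRF-KO LPS cells and 62.9 ± 1.77 CPM in WT LPS cells (SD, n = 3 each), within the spread of the libraries, while with library totals its log2 fold change for SRF-KO was 0.37 and passed (edgeR adjusted p = 1.59e-08). Its log2 fold change was 0.77 for LPS in WT cells. Traf2, an adaptor of TNF receptors, had log2 fold changes of -1.18 for SRF-KO LPS over WT LPS and 1.94 for LPS in WT cells. Tab2, a TAK1-binding adaptor, had -0.55 and 0.89, and Ikbkb, a kinase that activates NF-kB, had -0.54 and 1.55 in the same comparisons.

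Oscar, an activating collagen receptor of osteoclasts (chr7:3609813-3616157, minus strand), was at the limit of detection. It had 4, 1 and 0 counts in SRF-KO LPS cells, against 0, 1 and 2 in WT LPS cells and 0, 2 and 1 in untreated WT cells. The ranges overlapped, and at this depth no difference was detectable. The count ratio of SRF-KO to WT LPS cells was 1.08, with a 95% counting interval of 0.209 to 6.92.

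The ITAM adaptor Tyrobp of the same branch averaged 445 ± 20.2 CPM in SRF-KO LPS cells, 752 ± 15.1 CPM in WT LPS cells and 791 ± 6.03 CPM in untreated WT cells (SD, n = 3 each). Among 13 tested genes of ITAM co-stimulation and calcium signalling, 2 were called higher and 10 lower in SRF-KO LPS over WT LPS, with a median of -0.53. For LPS in WT cells 6 were called higher and 3 lower, with a median of 0.04. Scaled by library totals, the splits were 5 and 7, and 5 and 8. Trem2, a lipid-sensing receptor that signals through Tyrobp, averaged 118 ± 7.30 CPM in SRF-KO LPS cells, 361 ± 22.4 CPM in WT LPS cells and 711 ± 14.2 CPM in untreated WT cells (SD, n = 3 each). Its log2 fold changes were -1.61 for SRF-KO LPS over WT LPS and -0.98 for LPS in WT cells. The adaptor Fcer1g was called lower in SRF-KO (-1.39) and higher with LPS in WT (1.12). Tyrobp was called lower in SRF-KO (-0.76), and for LPS in WT cells its value of -0.07 did not pass (edgeR adjusted p = 0.0719), while with library totals -0.62 passed (edgeR adjusted p = 7.54e-18). Syk, the kinase that both adaptors recruit, was called higher with LPS in WT (2.23). Its value for SRF-KO LPS over WT LPS was -0.16, which turned to 0.20 with library totals. Lcp2, the adaptor SLP-76, was called higher with LPS in WT (2.52), and the kinase Tec was called lower in SRF-KO (-1.29).

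M-CSF, the growth factor that keeps macrophages and osteoclast precursors alive, acts through Csf1r. Csf1r averaged 2938 ± 79.0 CPM in SRF-KO LPS cells, 2286 ± 65.2 CPM in WT LPS cells and 2440 ± 85.0 CPM in untreated WT cells (SD, n = 3 each). Csf1, its ligand, had log2 fold changes of -0.60 for SRF-KO LPS over WT LPS and 2.52 for LPS in WT cells. Among the 6 genes of the M-CSF receptor axis, 2 were called higher and 3 lower in SRF-KO (median -0.34), and 4 higher and 2 lower with LPS in WT (median 0.91). Il34, among these 4, had 6, 5 and 1 counts in the untreated libraries and passed the filter on low counts only through LPS-treated libraries. By library totals the splits became 3 and 3, and 4 and 2. Grb2, an adaptor of receptor tyrosine kinases, had -0.97 for SRF-KO and 0.83 for LPS, and Pik3r1, a regulatory subunit of PI3 kinase, had 0.57 and -1.03. Cbl, a ubiquitin ligase that turns over Csf1r, was called higher with LPS in WT (1.00).

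Nfatc1, the transcription factor at the centre of the programme (chr18:80606205-80713071, minus strand), was lowest in WT LPS cells. It had 74.3, 68.7 and 65.8 CPM in SRF-KO LPS cells, against 23.3, 20.2 and 21.3 CPM in WT LPS cells and 56.1, 57.1 and 58.3 CPM in untreated WT cells. The 3 ranges did not overlap. This was a log2 fold change of 1.69 for SRF-KO LPS over WT LPS (SE 0.0626, edgeR adjusted p = 1.58e-24) and -1.41 for LPS in WT cells (SE 0.0642, edgeR adjusted p = 1.1e-21). Against untreated WT, SRF-KO LPS cells were higher by 0.29 (SE 0.0512, edgeR adjusted p = 4.62e-06). With library totals that last value was 0.093 and did not pass (edgeR adjusted p = 0.0925).

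The 22 osteoclast transcription factors were split, with 8 called higher and 11 lower in SRF-KO LPS over WT LPS (median -0.26). Given LPS, WT cells had 12 called higher and 8 lower (median 0.87). Under library totals they split into 10 and 8, and 12 and 9. Among the NFAT relatives, Nfatc2 had -1.14 for SRF-KO and -1.69 for LPS, and Nfatc3 had 0.53 and -0.12. Jun, an AP-1 subunit, had 1.52 and -1.38 in the same comparisons. Fos, its partner, had 0.39 and -0.13, and Fosl2, a Fos relative, had 1.26 and 1.56. Mitf, which works with Spi1 on the Acp5 and Ctsk genes, had -0.37 and 1.67, the first of which was -0.018 and did not pass with library totals. Spi1 itself had -1.32 and 1.62. The NF-kB genes Nfkb1 and Nfkb2 and the AP-1 gene Junb were called higher with LPS in WT, by 2.00, 2.70 and 1.97.

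Repressors of the programme were mostly lower in SRF-KO. Of 12 tested, 1 was called higher and 10 lower in SRF-KO LPS over WT LPS, with a median of -0.65. For LPS in WT cells 8 were called higher and 3 lower (median 0.49). Library totals in place of TMM gave 3 and 7, and 4 and 6. Irf8, which blocks NFATc1, averaged 98.8 ± 2.34 CPM in SRF-KO LPS cells, 208 ± 4.04 CPM in WT LPS cells and 151 ± 2.87 CPM in untreated WT cells (SD, n = 3 each). Its log2 fold change for SRF-KO was -1.07, and for LPS it was 0.46, which turned to -0.086 with library totals. Bcl6, which represses NFATc1 targets, had -1.78 for SRF-KO and 0.38 for LPS, the second turning to -0.17 with library totals. Id1, an inhibitor of helix-loop-helix factors, had -2.23 and 0.64. Tnfaip3 (A20), a brake on NF-kB, had -0.41 and 4.27. With library totals, Tnfaip3 for SRF-KO (-0.057) and Id1 for LPS (0.094) did not pass. Rbpj, the nuclear effector of Notch, and Pirb, an inhibitory immunoreceptor, were called higher with LPS in WT (0.95 and 1.93), and reads of Pirb can be split with its near-identical relatives.

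All 3 fusion genes among the members were higher in SRF-KO LPS cells than in WT LPS cells. Dcstamp, a membrane protein needed for osteoclasts and giant cells to fuse (chr15:39745930-39760938, plus strand), had 24.7, 28.9 and 28.2 CPM in SRF-KO LPS cells. It had 2.01, 1.94 and 1.88 CPM in WT LPS cells and 3.28, 2.73 and 2.88 CPM in untreated WT cells. Every SRF-KO library was far above the other 6, and both wild-type groups were low without overlapping. On the log2 scale the change was 3.81 for SRF-KO LPS over WT LPS (SE 0.125, edgeR adjusted p = 3.03e-26) and 3.20 against untreated WT (SE 0.103, edgeR adjusted p = 1.67e-26). LPS in WT cells gave -0.61 (SE 0.191, edgeR adjusted p = 0.00387).

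Ocstamp, a related membrane protein that acts with Dcstamp (chr2:165393760-165400405, minus strand), was low throughout. It had 3.06, 2.79 and 2.44 CPM in SRF-KO LPS cells, against 1.37, 0.899 and 1.49 CPM in WT LPS cells and 0.386, 0.622 and 0.587 CPM in untreated WT cells. The 3 groups formed 3 steps without overlap. The change on the log2 scale was 1.15 for SRF-KO LPS over WT LPS (SE 0.232, edgeR adjusted p = 3.12e-05) and 2.38 against untreated WT (SE 0.255, edgeR adjusted p = 1.01e-10). LPS in WT cells gave 1.23 (SE 0.331, edgeR adjusted p = 0.000982), on 53 counts over the LPS libraries against 32 over the untreated ones. With library totals that value was 0.68 and did not pass (edgeR adjusted p = 0.0528).

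Atp6v0d2, a subunit of the vacuolar proton pump that also acts in fusion (chr4:19876841-19922605, minus strand), was highest in untreated cells. It had 13.02, 14.2 and 14.5 CPM in SRF-KO LPS cells, against 5.00, 4.91 and 5.63 CPM in WT LPS cells and 23.2, 20.2 and 19.4 CPM in untreated WT cells. SRF-KO LPS cells lay between the wild-type groups with no overlap. The log2 fold change was 1.42 for SRF-KO LPS over WT LPS (SE 0.113, edgeR adjusted p = 3.34e-14) and -2.01 for LPS in WT cells (SE 0.106, edgeR adjusted p = 1.18e-19). Against untreated WT, SRF-KO LPS cells had -0.59 (SE 0.0801, edgeR adjusted p = 2.22e-08).

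Of the 13 tested cell fusion genes, 8 were called higher, 5 of them at least 2-fold, and 5 lower in SRF-KO LPS over WT LPS. Their median was 0.62. The list includes the members Dcstamp, Ocstamp and Atp6v0d2, each called higher by at least 2-fold. Its split and median are therefore not independent of the members. With LPS in WT cells 5 were called higher and 8 lower, with a median of -0.42. The splits by library totals were 10 and 3, and 3 and 9. Sh3pxd2a, the invadopodium scaffold Tks5, averaged 31.9 ± 2.05 CPM in SRF-KO LPS cells, 7.29 ± 0.962 CPM in WT LPS cells and 43.7 ± 1.76 CPM in untreated WT cells (SD, n = 3 each). Its log2 fold changes were 2.12 for SRF-KO and -2.58 for LPS. The tetraspanin Cd9 had 1.46 and -0.40. Cd44, a hyaluronan receptor, had 0.78 and 1.10, and Cd47, the ligand of Sirpa, had -0.69 and 1.97.

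Itgb3 encodes the beta-3 integrin chain, which pairs with Itgav to anchor osteoclasts to bone (chr11:104608000-104670476, plus strand). It had 1.80, 1.47 and 1.53 CPM in SRF-KO LPS cells, against 0.322, 0.760 and 0.776 CPM in WT LPS cells and 6.13, 5.60 and 5.66 CPM in untreated WT cells. Untreated cells were highest and wild-type LPS cells lowest, with no overlap. The log2 fold change for LPS in WT cells was -3.17 (SE 0.230, edgeR adjusted p = 1.92e-15), which rests on 27 counts over the LPS libraries against 350 over the untreated ones. For SRF-KO it was 1.32 against WT LPS (SE 0.296, edgeR adjusted p = 0.000134) and -1.85 against untreated WT (SE 0.166, edgeR adjusted p = 8.67e-13).

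Among 20 genes of adhesion and the sealing zone, 6 were called higher and 11 lower in SRF-KO LPS over WT LPS (median -0.19). With LPS in WT cells 13 were called higher and 4 lower (median 0.50). With library totals the splits were 11 and 8, and 7 and 9. Spp1, the bone matrix protein osteopontin that binds this integrin, averaged 3883 ± 78.4 CPM in SRF-KO LPS cells, 1468 ± 41.7 CPM in WT LPS cells and 1004 ± 56.7 CPM in untreated WT cells (SD, n = 3 each). Itgav was called higher in SRF-KO (0.53). Ptk2b, the kinase Pyk2 downstream of the integrin, had -1.75 for SRF-KO and 0.85 for LPS. Src, which works with it, had 3.84 for LPS and -0.28 for SRF-KO, the second turning to 0.075 with library totals. Pstpip2, a membrane-bending adaptor, and Rac2, a GTPase of the actin cytoskeleton, were called higher with LPS in WT (3.55 and 1.99), and Actr2 of the Arp2/3 complex was called lower in SRF-KO (-0.82).

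Ctsk, the protease cathepsin K that digests bone collagen (chr3:95499256-95509362, plus strand), had the largest fitted rise of the 9 tested members in SRF-KO LPS over WT LPS. It had 23.6, 26.4 and 24.0 CPM in SRF-KO LPS cells, against 1.05, 1.11 and 1.16 CPM in WT LPS cells and 1.93, 1.58 and 2.03 CPM in untreated WT cells. In counts these were 523, 681 and 423 in SRF-KO, 13, 16 and 18 in WT LPS cells, and 40, 33 and 38 in untreated WT cells. No range overlapped another. The log2 fold change was 4.47 for SRF-KO LPS over WT LPS (SE 0.141, edgeR adjusted p = 8.17e-27) and 3.74 against untreated WT (SE 0.114, edgeR adjusted p = 2.41e-27). LPS in WT cells gave -0.73 (SE 0.239, edgeR adjusted p = 0.00584).

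Acp5, the tartrate-resistant acid phosphatase used to stain osteoclasts (chr9:22126727-22135711, minus strand), was higher with LPS and higher again in SRF-KO. It had 133.9, 129.5 and 138.8 CPM in SRF-KO LPS cells, against 52.5, 52.2 and 55.0 CPM in WT LPS cells and 14.5, 16.2 and 16.6 CPM in untreated WT cells. The 3 groups formed 3 steps without overlap. The log2 fold change was 1.33 for SRF-KO LPS over WT LPS (SE 0.0495, edgeR adjusted p = 1.92e-24) and 1.76 for LPS in WT cells (SE 0.0636, edgeR adjusted p = 5.67e-25). Between SRF-KO LPS cells and untreated WT cells it was 3.09 (SE 0.0563, edgeR adjusted p = 8.08e-35). An antisense gene, 6530413G14Rik, covers 137 bases of its exons, and since the strand setting of the counting is not given, reads there cannot be told apart.

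The larger resorption list moved in both directions. Of 22 genes of acid secretion and matrix resorption, 6 were called higher and 14 lower in SRF-KO LPS over WT LPS (median -0.19). With LPS in WT cells 13 were called higher and 8 lower (median 0.27). With library totals the splits were 13 and 8, and 9 and 13. Mmp9, a gelatinase, averaged 36.5 ± 1.95 CPM in SRF-KO LPS cells, 9.65 ± 0.747 CPM in WT LPS cells and 0.678 ± 0.169 CPM in untreated WT cells (SD, n = 3 each). Mmp14, the membrane collagenase, averaged 338 ± 7.39, 1564 ± 38.0 and 100.2 ± 9.56 CPM in the same order, so it was lower in SRF-KO where Mmp9 was higher. Their log2 fold changes for SRF-KO were 1.91 and -2.21, and for LPS 3.82 and 3.96.

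Among the genes of acid secretion, Atp6v0d2 was called higher in SRF-KO, while Tcirg1 and Clcn7 were called lower. Tcirg1, the osteoclast a3 subunit of the proton pump, had -1.16 for SRF-KO and 1.13 for LPS. Clcn7, the chloride-proton exchanger, had -0.68 and 1.03, and its partner Ostm1 had -0.23 and -0.46, the first turning to 0.13 with library totals. Atp6v0d1, the widely expressed relative of Atp6v0d2, had -0.12 and 0.28, both of which changed sign with library totals (0.23 and -0.27). Car2, the carbonic anhydrase that supplies protons, averaged 9.65 ± 0.835 CPM in SRF-KO LPS cells, 9.06 ± 0.442 CPM in WT LPS cells and 0.153 ± 0.0986 CPM in untreated WT cells (SD, n = 3 each). The SRF-KO and wild-type LPS libraries overlapped in Car2 (edgeR adjusted p = 0.491), though with library totals the value was 0.44 and passed (edgeR adjusted p = 0.000452). The log2 fold change of Car2 for LPS was 5.87. Its untreated level lay under the cut of 0.568 CPM of the filter on low counts. Car2 thus passed the filter only through LPS-treated libraries, and the size of this fold rests on few untreated counts. Snx10, a sorting protein needed for resorption, had -0.46 and 2.39, and Atp6v0a1, another a subunit of the pump, was called lower with LPS (-1.72). The lysosomal cathepsin Ctsb had -1.41 for SRF-KO and -0.17 for LPS, and Ctss had -1.06 for SRF-KO.

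Calcr, the receptor through which calcitonin stops osteoclasts (chr6:3685680-3764714, minus strand), was detected mainly in SRF-KO. It had 21, 19 and 13 counts in SRF-KO LPS cells, against 1, 1 and 1 in WT LPS cells and 0 in each untreated library. The counts of SRF-KO stood above those of the other 6 libraries. The count ratio of SRF-KO to WT LPS cells was 11.4 (95% counting interval 3.69 to 57.0). Against untreated WT the level was at least 16.2-fold higher, with 3 counts over the untreated group as the floor. No fold is given for LPS in WT cells, since both groups lie at or under that floor. At 0.806 CPM in SRF-KO, Calcr was still a rare transcript.

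The calcitonin receptor works with RAMP proteins. Of 8 tested calcitonin and hormone receptor genes, 5 were called higher and 3 lower in SRF-KO LPS over WT LPS (median 1.30). Calcr, Ramp1 and Ramp3 passed the filter only through the SRF-KO libraries and had to differ, and of the other 5 genes 2 were called higher and 3 lower (median -0.11). With LPS in WT cells 3 were called higher and 0 lower (median 0.46, or 0.26 with Calcr set to its bound), and 5 did not pass. With library totals the splits were 6 and 2, and 2 and 4. Ramp3 had 63, 51 and 55 counts in SRF-KO LPS cells, against 3 over the wild-type LPS libraries, a ratio of 36.3 (95% counting interval 12.2 to 178). Ramp2 was called lower in SRF-KO (-0.51), and Ramp1 had a value of -0.78 for LPS that did not pass (edgeR adjusted p = 0.126), while with library totals -1.31 passed (edgeR adjusted p = 0.00867). Calcrl, the related receptor, had 0.17 for SRF-KO and 1.69 for LPS. Vdr, the vitamin D receptor, averaged 2.51 ± 0.566 CPM in SRF-KO LPS cells and 0.427 ± 0.0723 CPM in WT LPS cells (SD, n = 3 each), a log2 fold change of 2.56. Nr3c1, the glucocorticoid receptor, was called higher with LPS (0.91). Of the 4 tested coupling factors, by which osteoclasts signal to bone-forming cells, 1 was called higher and 3 lower in SRF-KO (median -1.02; the one higher, Sphk1, passed the filter only through the SRF-KO libraries), and 3 higher and 1 lower with LPS (median 1.21, with library totals 2 and 2). The complement component C3 had -1.41 and 2.13. Sema4d, a semaphorin, had -1.51 and 0.30, the second turning to -0.25 with library totals, and the growth factor gene Pdgfb had -0.62 and -0.63.

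**Figure D3:**
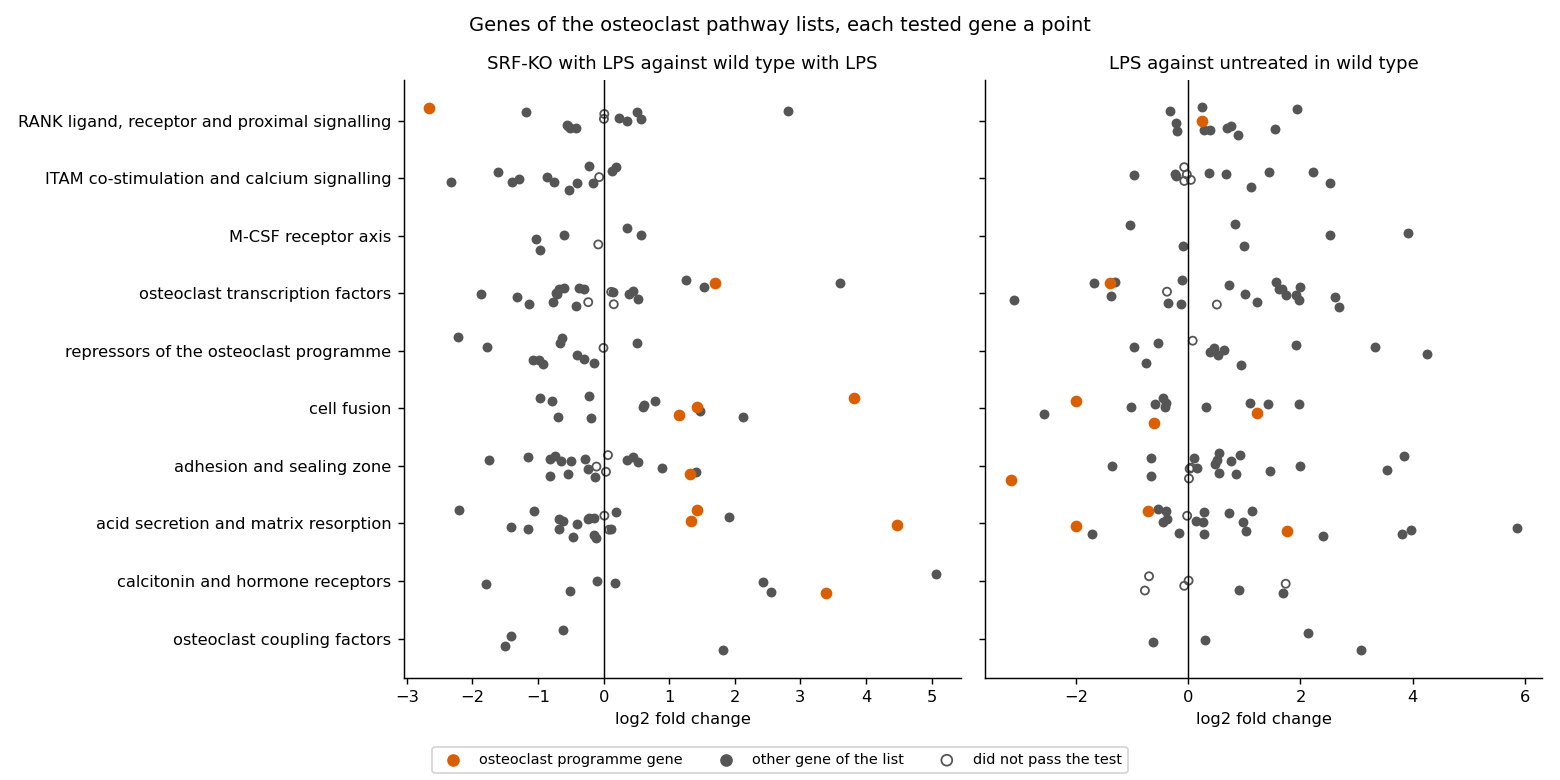
Log2 fold changes of the tested genes in 10 lists of osteoclast pathway genes, one point a gene, for SRF-KO LPS over WT LPS (left) and LPS against untreated in wild type (right). Orange marks the osteoclast programme genes, open points did not pass the test, the height within a row is random, and genes with 0 counts in a group are not drawn. On the left, the programme genes Ctsk, Dcstamp and Calcr and the other list genes Ramp3 (5.07) and Fosl1 (3.61) lie above 3. Calcr and Ramp3 passed the filter on low counts only through the SRF-KO libraries and had to differ. Most ITAM, repressor and resorption genes lie below 0 with TMM scaling. With library totals the resorption genes split into 13 higher and 8 lower, beside 7059 higher and 2434 lower of all 11560 genes tested.

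Over the 10 lists together, 132 of 140 genes were tested, with 43 called higher and 76 lower in SRF-KO LPS over WT LPS. Their median was -0.23, beside 0.01 for all genes. With library totals the split was 68 higher and 54 lower, with a median of 0.13 beside 0.37 for all genes. With LPS in WT cells 77 were called higher and 39 lower, with a median of 0.38 beside -0.02. By library totals these numbers were 54 and 68, with a median of -0.16 beside -0.57. Of the 9 tested members, 8 were thus higher in SRF-KO LPS over WT LPS. In the same comparison, the median of the larger set of pathway genes lay below that of all genes under either scaling.

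The members were also ranked by level per length, as CPM per kilobase of exon, so that genes could be compared with each other. In SRF-KO LPS cells, Acp5 ranked first with 66.0 ± 2.30, followed by Ctsk with 16.3 ± 0.993, Dcstamp with 10.2 ± 0.840 and Nfatc1 with 9.32 ± 0.578 (SD, n = 3 each). Dcstamp and Nfatc1 did not differ beyond their spread. Tnfrsf11a came after them with 7.39 ± 0.259, then Atp6v0d2 with 5.13 ± 0.292, and Ocstamp, Itgb3, Calcr and Oscar were each below 1 CPM per kilobase.

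In WT LPS cells, Tnfrsf11a ranked first with 46.7 ± 1.21 CPM per kilobase, followed by Acp5 with 26.2 ± 0.754, Nfatc1 with 2.90 ± 0.206 and Atp6v0d2 with 1.91 ± 0.144. Ctsk (0.731 ± 0.0385) and Dcstamp (0.729 ± 0.0262) overlapped, as did Itgb3 with Oscar and Oscar with Calcr. Untreated WT also had Tnfrsf11a first, with 39.4 ± 0.442 CPM per kilobase. Acp5 (7.76 ± 0.555), Atp6v0d2 (7.71 ± 0.739) and Nfatc1 (7.66 ± 0.153) overlapped as neighbours, and so did Ctsk (1.22 ± 0.156), Dcstamp (1.11 ± 0.107) and Itgb3 (0.982 ± 0.0489). Tnfrsf11a thus had rank 5 in SRF-KO LPS cells and rank 1 in both wild-type groups, and Ctsk had rank 2 in SRF-KO LPS cells and rank 5 in both wild-type groups.

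**Figure D4:**
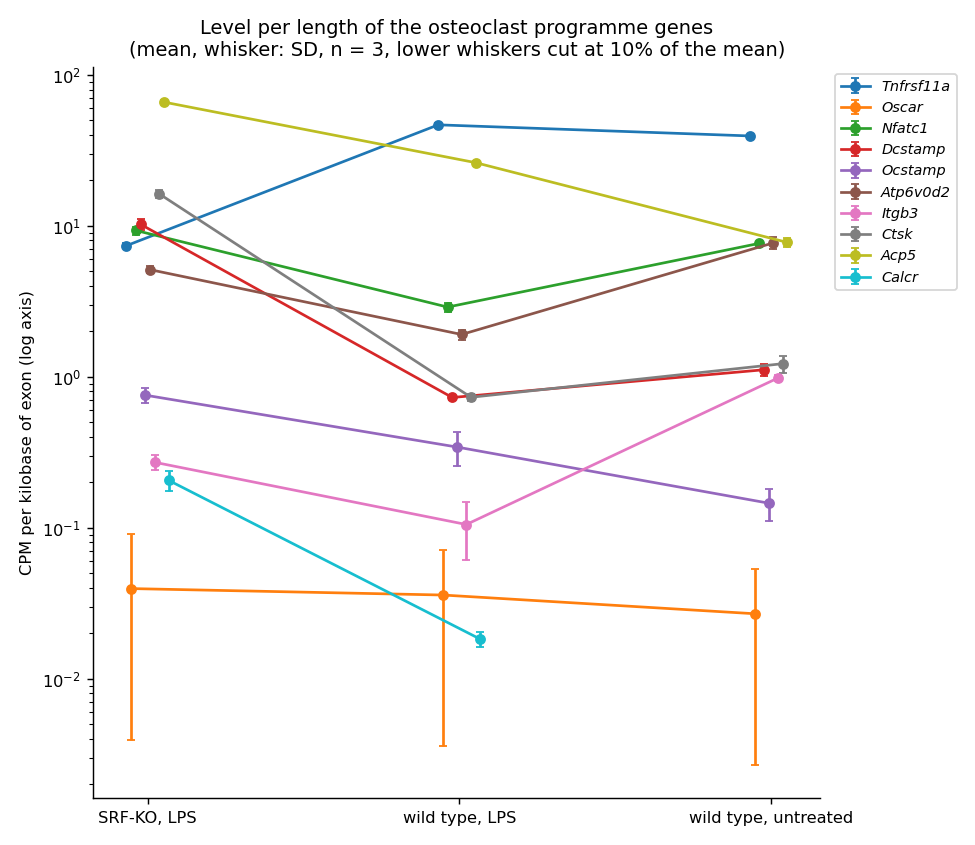
Level per length of the osteoclast programme genes in CPM per kilobase of exon on a log axis, as the mean of 3 libraries with SD in each group. Lines join the values of a gene, and lower whiskers end at 10% of the mean where the SD is larger. Calcr is at 0 in untreated WT cells and not drawn there. Tnfrsf11a is above 39 in both wild-type groups and at 7.39 in SRF-KO LPS cells, where Acp5 reaches 66.0.

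For each tested member, the 2 tested genes with the most similar profile over the 9 libraries were found by the root mean square difference of centred log2 CPM. Acp5 was closest to Ets2, with a difference of 0.0503, and to Ccr1 with 0.111. Tnfrsf11a was closest to Lst1 (0.0882) and Gatm (0.116), and Nfatc1 to Slc7a6 (0.0792) and Foxred2 (0.0864). Ctsk was closest to Stac2 (0.191) and Nqo1 (0.213), with Stac2 at 30.5 CPM in SRF-KO LPS cells, 1.28 CPM in WT LPS cells and 2.12 CPM in untreated WT cells. Dcstamp was closest to Acsbg1 (0.141) and Pcx (0.223), and Atp6v0d2 to Topbp1 (0.0989) and Tef (0.0993). Ocstamp was closest to Serpinb12 (0.202) and Rgs16 (0.220), and Itgb3 to Gmpr (0.204) and Slco5a1 (0.209). Calcr was closest to Myo1d (0.120) and Dner (0.138), on a scale compressed by the prior count of 2 at its low counts. None of these partners was another member.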

How the data were processed

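Gene expression was measured by RNA sequencing of 9 libraries in 3 groups of 3, which came with their replicate numbers from the titles. A stranded TruSeq kit was used, per the labels. STAR 2.5.4b, featureCounts, Trimmomatic, bcl2fastq 2.19, edgeR and the build GRCm38 are listed without options in the submitters' processing notes. Strand setting and annotation release: not given in the sources used here. Each deposited file holds raw read counts of Ensembl genes for 1 library.

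The deposited counts were tested with edgeR 4.0.16 (R 4.3.3). Genes kept by filterByExpr (11560) entered 1 robust quasi-likelihood fit of all 9 libraries with TMM scaling and group as the only term. Benjamini-Hochberg adjustment covered all of them, with calls below 0.05. TMM factors were 1.04 in SRF-KO LPS cells, 0.810 to 0.814 in WT LPS cells and 1.18 to 1.19 in untreated WT cells. The SE came from the fold change and its F statistic. For the lowest genes an exact 95% interval of the count ratio is given, and with 0 counts a floor of 3 counts over the group. Both cover counting error only. Level per length used the summed exon length of GENCODE mouse release 21, which also gave the coordinates. Promoter windows are RefSeq's, of GRCm38.p6. Symbols were found for 22214 of 22524 identifiers, and Lilrb4a of the repressor list was not analysed here.

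The members and the lists were chosen with earlier results of these data known. Beside the members, the genes named are their direct partners and, in each list, the 3 other tested genes with the smallest p in LPS against untreated and in SRF-KO LPS over WT LPS. The 2 most similar genes of each member were added by the same rule. No pair of libraries held identical counts, and replicate pairs differed beyond sampling noise, with a chi-square per degree of freedom of 1.75 to 3.95. The steps were tested on simulated data in which most genes were unchanged and rises and falls were balanced. That setting differs from these data, so it does not test the scaling. Alternatives were library totals, DESeq2 1.42.0 and its size factors, other filters, fits of 2 groups, the replicate block and leaving out each library. A gene of the repressor list entered the counts and is not reported by name here.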

Additional observations from a re-analysis of the deposited data

How the results depend on the processing

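The choice of scaling moved most. With library totals, LPS against untreated in wild type gave 2428 genes higher and 7835 lower, with 1 osteoclast programme gene higher, and SRF-KO LPS over WT LPS gave 7059 higher and 2434 lower. Under that setting the log2 fold change for LPS in WT cells turned to -0.31 for Tnfrsf11a, -0.086 for Irf8, -0.17 for Bcl6, -0.27 for Atp6v0d1 and -0.25 for Sema4d. For SRF-KO LPS over WT LPS it turned to 0.20 for Syk, 0.075 for Src, 0.13 for Ostm1 and 0.23 for Atp6v0d1. Traf6, which did not pass, had -0.0050 to 0.033 for SRF-KO LPS over WT LPS without each library in turn, the lowest without WT LPS replicate 1. Over the members, 416 values kept their sign and side of the threshold under an alternative, 11 lost the call and 1 changed sign. Of the 11, 9 were Calcr for LPS in WT cells, and the others were Ocstamp for LPS and Nfatc1 for SRF-KO LPS over untreated WT, both with library totals. For the other named genes these numbers were 1682, 11 and 9, and 8 gained a call. Without each library in turn, 3 to 4 members were called higher and 5 lower for LPS in WT cells, and the other comparisons gave 8 and 1 and 6 and 3 each time. Between SRF-KO LPS and WT LPS, each library correlated best with its own number, at 0.065, 0.097 and 0.018. Unlike numbers there gave -0.072 to 0.007. Against the untreated group, same-numbered libraries correlated between -0.075 and 0.051. The largest value of all, 0.111, was between unlike numbers, SRF-KO LPS replicate 2 and untreated replicate 1. All these correlations were weak, and whether same-numbered LPS libraries shared a batch cannot be told from the labels. With the replicate block, 8 members were higher and 1 lower in SRF-KO LPS over WT LPS, 4 and 5 for LPS, and 6 and 3 in SRF-KO LPS over untreated WT, and all-gene counts for LPS were 4741 higher and 4726 lower. In comparisons with the untreated group, not every sample correlated best with its own number. The order of members by level per length was the same with library totals. Depth limits Oscar, Calcr, Itgb3 and Ocstamp, whose largest library count was 127. The WT LPS counts of Ctsk (13, 16 and 18) and Dcstamp (25, 28 and 29) were also small, and their folds over WT LPS rest on them.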
